A study of Danio rerio with 12 samples.

Results

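The mitochondrial genome transcripts are the 13 genes of the deposited count table whose symbol starts with MT-, ignoring case, out of 32105 gene identifiers. All 13 encode proteins of the respiratory chain: 7 subunits of complex I, 1 of complex III, 3 of complex IV and 2 of complex V. The series holds 12 brain libraries of 6-month-old male zebrafish in 3 groups of 4: wild type, the line actb1::miR-29sponge and the line kif5a::miR-29sponge. A sponge is a transgene whose transcript carries binding sites for a microRNA, here miR-29. The actb1 gene encodes a cytoplasmic actin made in most cells, and kif5a encodes a kinesin of neurons; the cells in which each line makes its sponge are not stated beyond these names. The labels name no allele or clone of either line, no agent was given, and no genotype beyond the sponge is stated for any group. Whether separate animals gave the 4 libraries of a group is not stated, so p-values here measure only library-to-library spread, which may be technical. Counts per library summed to between 20884576 and 33573243. Neuronal and glial genes such as SNAP25 (ENSDARG00000020609, 2635 to 4055 CPM, the count scaled to the library total) and mbpa (9921 to 17635 CPM) were high in every library.

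The vertebrate mitochondrial genome is a small circle that is transcribed from both strands into long precursors. These are cut mostly at the tRNAs that lie between the genes, so the mRNAs start from a common precursor and their steady levels differ through processing and decay. Most mRNAs come from the heavy-strand transcript, and MT-ND6 comes from the light strand. In mammals, MT-ATP8 with MT-ATP6 and MT-ND4L with MT-ND4 each share 1 mRNA with overlapping reading frames. Brain depends heavily on oxidative phosphorylation, and these mRNAs are among the most abundant in it.

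The library kit does not mark the strand. Reads from MT-ND6 and from the heavy-strand RNA opposite it therefore cannot be told apart. The sources used here do not say how reads over overlapping genes, or reads that match several copies, were counted, so MT-ATP8, MT-ATP6, MT-ND4L, MT-ND4, MT-ND5 and MT-ND6 are uncertain in that respect. The mitochondrial rRNA and tRNA genes carry no MT- symbol here and are not analysed as members.

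The 13 mRNAs took a similar share of all counts in 11 libraries and a far smaller one in 1. In wild type 1 to 4 they held 9.71%, 11.4%, 13.5% and 10.5% of the library's counts. In actb1 sponge 1 to 4 they held 12.0%, 10.5%, 2.24% and 14.0%. In kif5a sponge 1 to 4 they held 9.37%, 11.6%, 10.9% and 11.7%. Actb1 sponge 3 was lowest, the other 11 libraries lay between 9.37% and 14.0%, and the ranges of the 3 groups overlapped. The mean share was 11.3% ± 1.61 in wild type (SD, n = 4), 9.68% ± 5.16 in the actb1 line (n = 4) and 10.9% ± 1.07 in the kif5a line (n = 4). Without actb1 sponge 3 the actb1 mean was 12.2% ± 1.75 (n = 3). Counting error is small beside these spreads, since the 95% Wilson interval of a library's share was at most 0.0132 percentage points to either side. In bulk tissue, fewer cells of a type and less RNA per cell cannot be told apart.

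**Figure D1:**
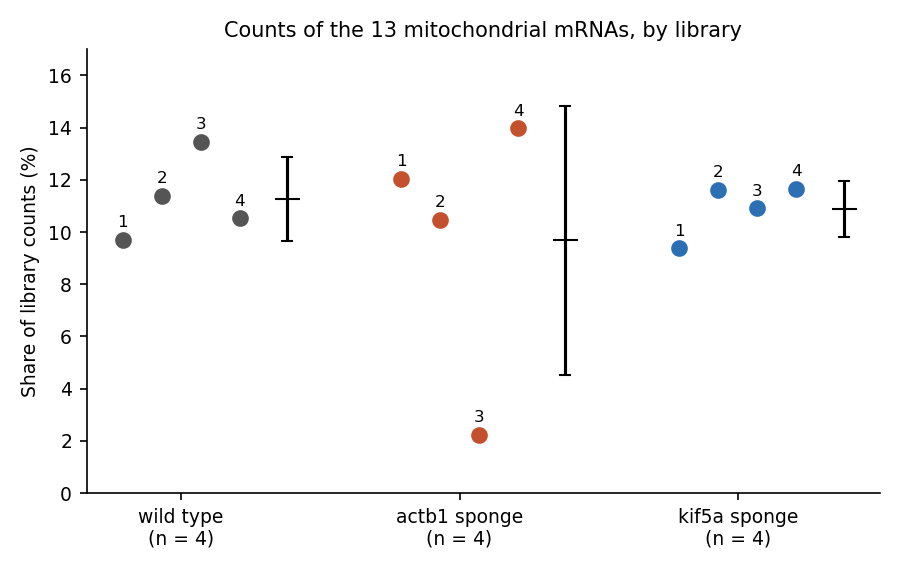
Share of library counts (%, vertical axis from 0) held by the 13 mitochondrial mRNAs, with 1 numbered point per library and the mean with SD of each group beside it. Actb1 sponge 3 sits at 2.24%, and the other 11 libraries sit between 9.37% and 14.0%.

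MT-CO1, the catalytic subunit of complex IV, was the most counted gene of the whole table in 11 libraries and ranked 2 in actb1 sponge 3. In the 11 libraries 9 of the 13 members were among the 20 most counted genes, against 3 members in actb1 sponge 3. That library was also the deepest in counts.

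Every one of the 13 was lowest in actb1 sponge 3, where 18.4% of the 19645 genes tested had their lowest value. For 12 of 13 the level there was over 4-fold below the median of the other 11 libraries, which held for 1.26% of all genes tested. The drop was unequal between members. MT-ATP6, which forms the proton channel of ATP synthase with the ring of c subunits, stood at 546 CPM in actb1 sponge 3 against a median of 9490 CPM in the others, 17.4-fold lower. MT-ND4L was 14.8-fold lower (48.0 against 712 CPM) and MT-ATP8 13.2-fold lower (103 against 1366 CPM). The complex IV mRNAs were at the other end, with MT-CO3 5.03-fold, MT-CO1 4.06-fold and MT-CO2 3.11-fold lower. Between these ends lay MT-ND6 (9.99-fold), MT-ND1 (8.56-fold), MT-ND2 (8.44-fold), MT-CYB (6.94-fold), MT-ND5 (6.30-fold), MT-ND4 (6.17-fold) and MT-ND3 (5.24-fold). Neighbours in the genome did not share 1 fold: MT-ATP6 and MT-CO3 lie side by side and differed by 17.4-fold and 5.03-fold from the other libraries.

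**Figure D2:**
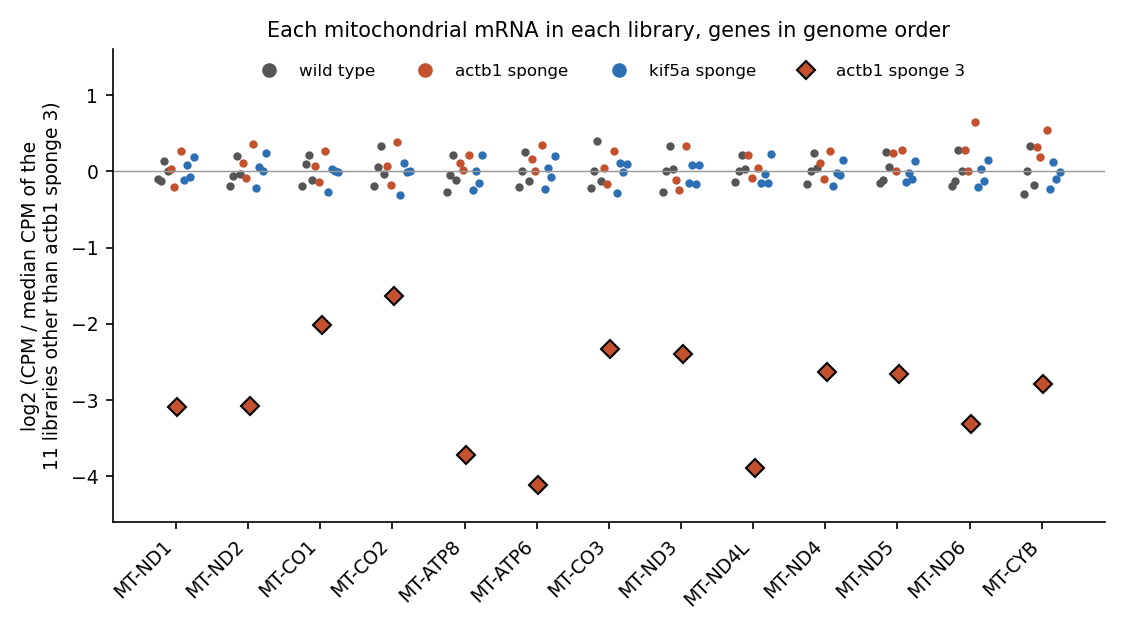
Level of each mitochondrial mRNA in each library as log2 of its CPM over the median CPM of the 11 libraries other than actb1 sponge 3 (vertical axis), with genes in genome order (horizontal axis), circles for 11 libraries coloured by group and diamonds for actb1 sponge 3. The diamonds lie below all circles for all 13 genes, farthest for MT-ATP6 (17.4-fold) and nearest for MT-CO2 (3.11-fold).

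Among the other 11 libraries the members varied by at most 1.81-fold, and their levels were positively correlated. The highest of the 11 exceeded the lowest by 1.31-fold (MT-ND4L) to 1.81-fold (MT-ND6). Actb1 sponge 4 was the highest of all 12 libraries for 10 members, against 5.5% of all genes tested. Wild type 3 was highest for MT-ATP8 and MT-CO3 (3.16% of all genes), and kif5a sponge 4 for MT-ND4L. Kif5a sponge 1 was the lowest of the 11 for 8 members (6.94% of all genes). Pearson's r between the log2 CPM of 2 members over the 11 libraries ran from 0.56 (lowest of 78 pairs) through a median of 0.833 to 0.975. This is a description only, since the points share library and depth and no spread or r of other genes is set beside them.

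Per length, the complex IV mRNAs were highest and the complex I mRNAs lowest. On the scale of RPKM recomputed from the counts (CPM per kilobase of gene), wild type had MT-CO1 at 27354 ± 3560 (SD, n = 4), MT-CO2 at 19355 ± 2964 and MT-CO3 at 18510 ± 3734. MT-ATP6 followed at 13801 ± 1958, MT-CYB, the central subunit of complex III, at 9207 ± 1815, and MT-ATP8 at 8048 ± 1162. The complex I mRNAs came last, from MT-ND4 at 4173 ± 492, MT-ND1 at 4168 ± 351 and MT-ND2 at 4154 ± 491 down to MT-ND6 at 2631 ± 391, MT-ND3 at 2573 ± 437, MT-ND4L at 2454 ± 252 and MT-ND5 at 2154 ± 289. The top exceeded the bottom 12.7-fold. The wild type ranges of MT-CO2 and MT-CO3, of MT-CO3 and MT-ATP6, and of MT-CYB and MT-ATP8 overlapped, as did those of MT-ND4, MT-ND1 and MT-ND2 and those of neighbours from MT-ND6 to MT-ND5. The ranges did not overlap between MT-CO1 and MT-CO2, MT-ATP6 and MT-CYB, MT-ATP8 and MT-ND4, or MT-ND2 and MT-ND6.

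The first 6 places and the last 4 were the same in the means of all 3 groups, and only MT-ND4, MT-ND1 and MT-ND2 changed places among ranks 7 to 9. In actb1 sponge 3 the first 3 places were those of wild type, and the other 10 members each stood at another rank than in the wild type means. MT-ATP6 went from rank 4 to rank 5 at an RPKM of 798, below MT-CYB at 1340. MT-ND6 went from rank 10 to rank 12, MT-ND5 from rank 13 to rank 11, and MT-ND4L took the last place at 162.

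**Figure D3:**
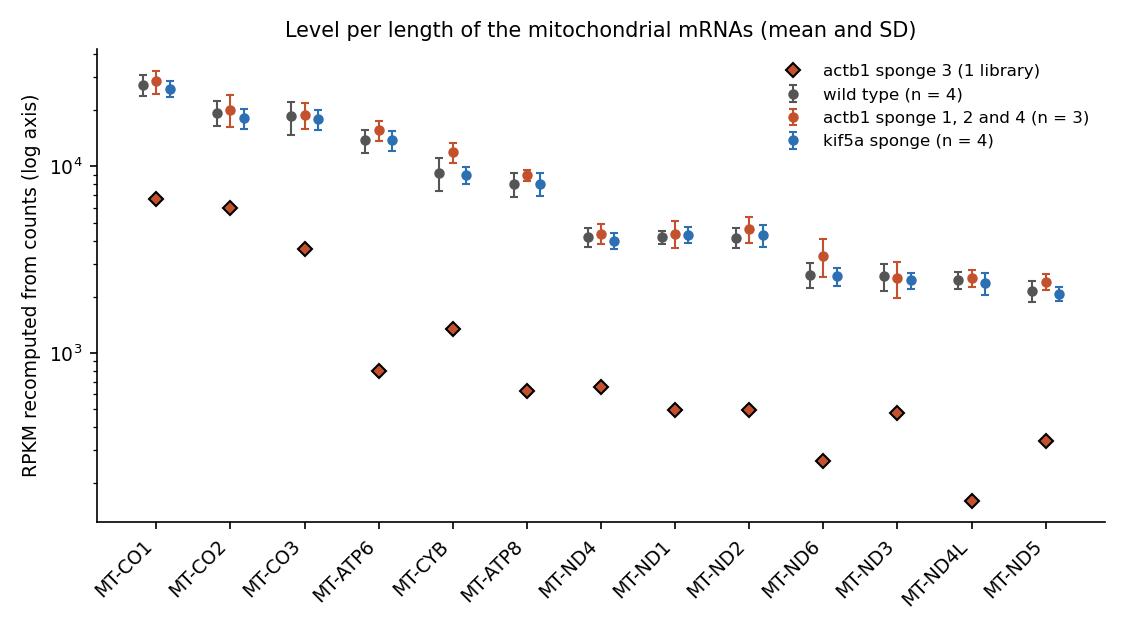
RPKM recomputed from counts (vertical axis, logarithmic) for the 13 mitochondrial mRNAs, ordered by their wild type mean. Circles and bars give the mean and SD of wild type (n = 4), actb1 sponge 1, 2 and 4 (n = 3) and kif5a sponge (n = 4), and diamonds give actb1 sponge 3, which is lower for all 13 genes.

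The 3 complex IV mRNAs encode the core that reduces oxygen to water. MT-CO1 stood at 36812, 44887, 48949 and 39058 CPM in wild type 1 to 4, at 44082, 38198, 10374 and 50588 CPM in actb1 sponge 1 to 4, and at 34899, 43012, 42104 and 41872 CPM in kif5a sponge 1 to 4. Outside actb1 sponge 3, both lines overlapped wild type. MT-CO2, which takes electrons from cytochrome c, ran from 11319 to 16159 CPM in wild type and from 10397 to 13934 CPM in the kif5a line. MT-CO3, the third core subunit, ran from 12202 to 18772 CPM in wild type and from 11619 to 15266 CPM in the kif5a line. Actb1 sponge 3 held 4147 CPM of MT-CO2 and 2828 CPM of MT-CO3, and the other actb1 libraries overlapped wild type for both.

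MT-CYB carries the quinone sites and haem groups of complex III. It stood at 8655, 10606, 13369 and 9393 CPM in wild type, at 13189, 12096, 1529 and 15408 CPM in the actb1 line, and at 9015, 11577, 9850 and 10544 CPM in the kif5a line. The 3 other actb1 libraries all lay above the 4 kif5a libraries, and they overlapped wild type 3. Without actb1 sponge 3, MT-CYB was the 1 member of 13 with no overlap above the kif5a line (4.96% of all genes tested). Then 0 members lay wholly below it (12.3% of all genes), wholly above wild type (5.86%) or wholly below wild type (7.98%). With all 12 libraries 0 of 13 members separated any pair of groups. Since actb1 sponge 3 was the lowest library for every member, the actb1 line could not lie wholly above another group here. Of all genes tested, 4.15% lay wholly above and 4.62% wholly below wild type for the actb1 line, 6.08% and 3.3% did so for the kif5a line, and 3.61% and 7.28% lay wholly above and below the kif5a line in the actb1 line.

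The complex V mRNAs encode MT-ATP6 and MT-ATP8, a small subunit of the stalk region. MT-ATP6 stood at 8262, 9478, 11303 and 8717 CPM in wild type, at 10570, 9490, 546 and 12083 CPM in the actb1 line, and at 8063, 9804, 8973 and 10887 CPM in the kif5a line. MT-ATP8 ran from 1135 to 1590 CPM in wild type, from 1383 to 1578 CPM in actb1 sponge 1, 2 and 4, and from 1147 to 1583 CPM in the kif5a line. Groups overlapped for both genes, and only actb1 sponge 3 stood outside.

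The 7 complex I mRNAs encode membrane subunits of the NADH dehydrogenase, which couples electron transfer to proton pumping. MT-ND4 was the most counted of them, at 5011, 5612, 6655 and 5775 CPM in wild type, at 6061, 5250, 909 and 6771 CPM in the actb1 line, and at 4908, 5548, 5430 and 6218 CPM in the kif5a line. MT-ND1, which lies where the membrane arm meets the quinone site, stood at 3852, 3759, 4523 and 4122 CPM in wild type, at 4219, 3569, 482 and 4975 CPM in the actb1 line, and at 3794, 4362, 3900 and 4700 CPM in the kif5a line. Both genes overlapped between all groups. MT-ND2 and MT-ND5, which are proton-pumping subunits like MT-ND4, ran from 3842 to 5063 and from 3474 to 4630 CPM in wild type. MT-ND3 and MT-ND4L, both small membrane subunits, ran from 730 to 1104 and from 648 to 829 CPM there. Light-strand MT-ND6 ran from 1197 to 1651 CPM in wild type and from 1182 to 1515 CPM in the kif5a line. In the actb1 line MT-ND6 stood at 1657, 1366, 137 and 2145 CPM, so that this group held both its lowest and its highest value.

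Within the mitochondrial mRNA pool, the share of complex IV was highest in actb1 sponge 3. Complex IV mRNAs made up 62.4% ± 0.931 of the counts of the 13 in wild type (SD, n = 4), 61.5% ± 1.47 in the kif5a line (n = 4) and 64.3% ± 8.75 in the actb1 line (n = 4), which became 60.0% ± 0.576 without actb1 sponge 3 (n = 3). In that library their share was 77.4%, against 59.4% to 63.7% in the other 11. Actb1 sponge 1, 2 and 4 lay below all 4 wild type libraries and overlapped the kif5a line. Complex V mRNAs made up 2.90% there against 9.35% to 10.7% elsewhere, and complex I mRNAs 12.8% against 17.5% to 20.3%. For complex V, actb1 sponge 1, 2 and 4 lay above all 4 wild type libraries and again overlapped the kif5a line. MT-CO1 alone made up 46.3% and MT-CO2 18.5% in that library, while the share of MT-CO3, at 12.6%, lay inside the range of the others.

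MT-CYB made up 9.27% ± 0.479 of the 13 in wild type, 9.41% ± 0.456 in the kif5a line (both n = 4) and 11.2% ± 0.317 in actb1 sponge 1, 2 and 4 (n = 3). In those 3 libraries it stood at 10.96%, 11.54% and 11.03%, above all 8 libraries of the other groups, which reached 9.96%. Actb1 sponge 3 was the lowest of all 12, at 6.82%.

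Ratios between 2 mitochondrial mRNAs of the same library do not depend on how libraries are scaled to each other. A set of 11 ratios was compared between the 3 groups, which gave 33 exact two-sided permutation tests on the log2 scale. With 4 libraries against 4, such a test cannot give a p below 0.0286. At this floor a single ratio could not pass the Benjamini-Hochberg adjustment over 33 tests, so its failure to pass does not show equal ratios. Of the 33 tests, 2 reached the floor and 0 passed the adjustment.

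Both of those tests concerned the ratio of MT-ND1 to MT-CYB, genes near opposite ends of the heavy-strand transcript. The ratio of counts was 0.320, 0.295, 0.315 and 0.323 in actb1 sponge 1 to 4. It was 0.445, 0.354, 0.338 and 0.439 in wild type and 0.421, 0.377, 0.396 and 0.446 in the kif5a line. All 4 actb1 libraries, actb1 sponge 3 among them, lay below all libraries of both other groups. The difference was -0.32 on the log2 scale against wild type and -0.39 against the kif5a line, each with an exact permutation p of 0.0286 and an adjusted p of 0.471 over the 33 tests. Without actb1 sponge 3 the differences were -0.33 (exact permutation p = 0.0857) and -0.39 (exact permutation p = 0.0286). The kif5a line differed from wild type by 0.06 (exact permutation p = 0.543).

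The ratio of MT-CYB to MT-CO1 split the actb1 line. It was 0.299, 0.317 and 0.305 in actb1 sponge 1, 2 and 4 and 0.147 in actb1 sponge 3. Wild type ran from 0.235 to 0.273 and the kif5a line from 0.234 to 0.269, so 3 actb1 libraries lay above all others and 1 below. With all 4 libraries the actb1 line differed from wild type by 0.06 on the log2 scale (exact permutation p = 0.914). Without actb1 sponge 3 the difference was 0.32 against wild type (exact permutation p = 0.0571) and 0.28 against the kif5a line (exact permutation p = 0.0286), with adjusted p-values of 0.21 and 0.157 over the 22 tests of that setting. This ratio shares MT-CYB with the ratio before it. Of those 22 tests, 7 had no overlap between the groups, 4 reached an exact permutation p of 0.0286 and 0 passed the adjustment, the smallest adjusted p being 0.157. The 4 were MT-ND1/MT-CYB and MT-CYB/MT-CO1 against the kif5a line, and MT-ND5/MT-ND4 (log2 difference 0.10) and MT-ATP6/MT-CO3 (0.15) against wild type. With 3 libraries against 4 the floor is again 0.0286, so a single ratio could not pass the adjustment here either.

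Actb1 sponge 3 fell outside the range of the other 11 libraries for 8 of the 11 ratios. MT-ATP6 to MT-CO3 was 0.193 there against 0.602 to 0.753 elsewhere. Within the pairs that share an mRNA in mammals, MT-ND4L to MT-ND4 was 0.0528 against 0.108 to 0.137, and MT-ATP8 to MT-ATP6 was 0.189 against 0.131 to 0.146. The former was low and the latter high in the same library. MT-CO2 to MT-CO1 was also high, at 0.400 against 0.298 to 0.332, and MT-CO3 to MT-CO1 was low, at 0.273 against 0.317 to 0.384. The ratios MT-ND1 to MT-CYB, MT-ND2 to MT-ND1 and MT-ND5 to MT-ND4 were inside the range of the others, the last at 0.676 against 0.637 to 0.757.

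MT-ND6 to MT-ND5 sets the light-strand mRNA against its neighbour on the heavy strand. It ran from 0.341 to 0.357 in wild type and from 0.336 to 0.365 in the kif5a line. Actb1 sponge 1 and 2 stood at 0.361 and 0.353, while actb1 sponge 3 was the lowest of the 12 at 0.223 and actb1 sponge 4 the highest at 0.455. MT-ND6 to MT-CYB ran from 0.118 to 0.145 in wild type, and actb1 sponge 3 was again lowest at 0.0895.

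**Figure D4:**
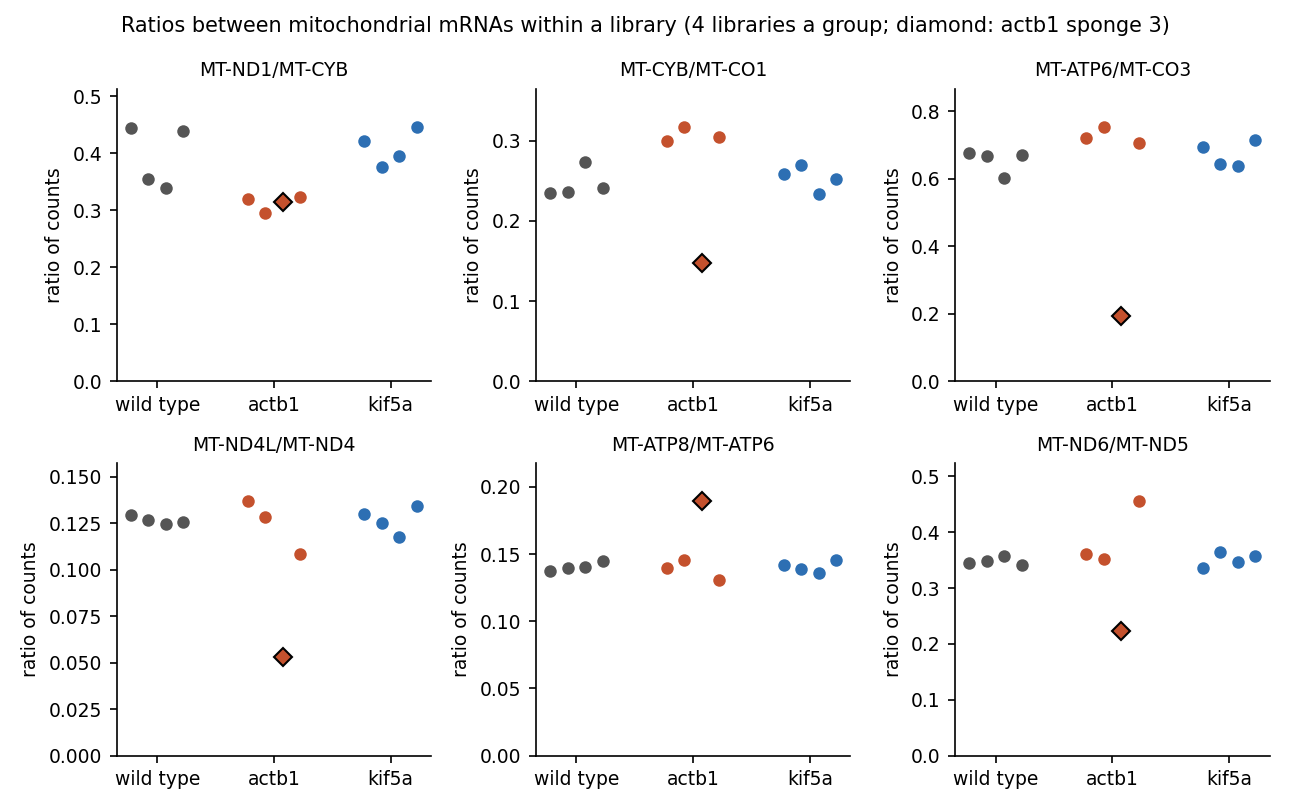
Ratio of counts between 2 mitochondrial mRNAs of the same library (vertical axes, from 0) in 6 panels, with 4 libraries for each of wild type, the actb1 line and the kif5a line, and actb1 sponge 3 as a diamond. The 4 actb1 libraries lie below the other 8 for MT-ND1/MT-CYB (0.295 to 0.323), and actb1 sponge 3 lies apart in the other 5 panels.

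The group comparison of each mRNA used the quasi-likelihood test of edgeR, with p-values adjusted by Benjamini-Hochberg over the 19645 genes that passed the filter on low counts, all 13 members among them. In the actb1 line against wild type 0 of 13 members were called at an adjusted p under 0.05, beside 0.738% of all genes. In the kif5a line against wild type the count was also 0 of 13, beside 0.534%, and between the lines 0 of 13, beside 1.18%. At an unadjusted p under 0.05 the count was 0 in each comparison, beside 16.7%, 11.3% and 16.2% of all genes in the same order, and DESeq2 and limma-voom gave 0 on both scores as well.

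In the actb1 line the log2 fold changes against wild type ran from -0.33 (MT-ND3 and MT-ND4L) to 0.02 (MT-CYB), with 12 of 13 negative and standard errors of 0.345 to 0.600. Their median was -0.21, against -0.03 for all genes tested, and the smallest adjusted p was 0.707 (edgeR). These signs rested on actb1 sponge 3. Without it all 13 fold changes were positive, from 0.03 (MT-ND3) to 0.42 ± 0.18 (SE, MT-CYB), with a median of 0.12 against 0.00 for all genes. The count called stayed at 0 of 13, beside 0.529% of all genes. MT-CYB then had the smallest adjusted p, 0.298 (edgeR), and was the 1 member at an unadjusted p under 0.05 (0.0402), beside 15.4% of all genes. MT-ND6 stood at 0.39 ± 0.19 (adjusted p = 0.344).

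In the kif5a line the 13 fold changes against wild type ran from -0.14 ± 0.34 (SE, MT-CO2) to about 0 (MT-ND1, -7.4e-05), with a median of -0.09 and a smallest adjusted p of 0.933 (edgeR). The standard errors come from a fit in which all 12 libraries share 1 spread, so the low library widens them here as well. Between the lines, the fold changes of the actb1 line over the kif5a line ran from -0.27 (MT-ND1) to 0.11 (MT-CYB) with all libraries. Without actb1 sponge 3 they ran from 0.11 (MT-ND1) to 0.49 ± 0.18 (MT-CYB), all 13 positive, again with 0 called beside 0.886% of all genes; at an unadjusted p under 0.05 there were then 2 of 13 members, MT-CYB and MT-ND6, beside 14.9% of all genes. The 3 comparisons share groups, so their signs are not separate evidence.

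**Figure D5:**
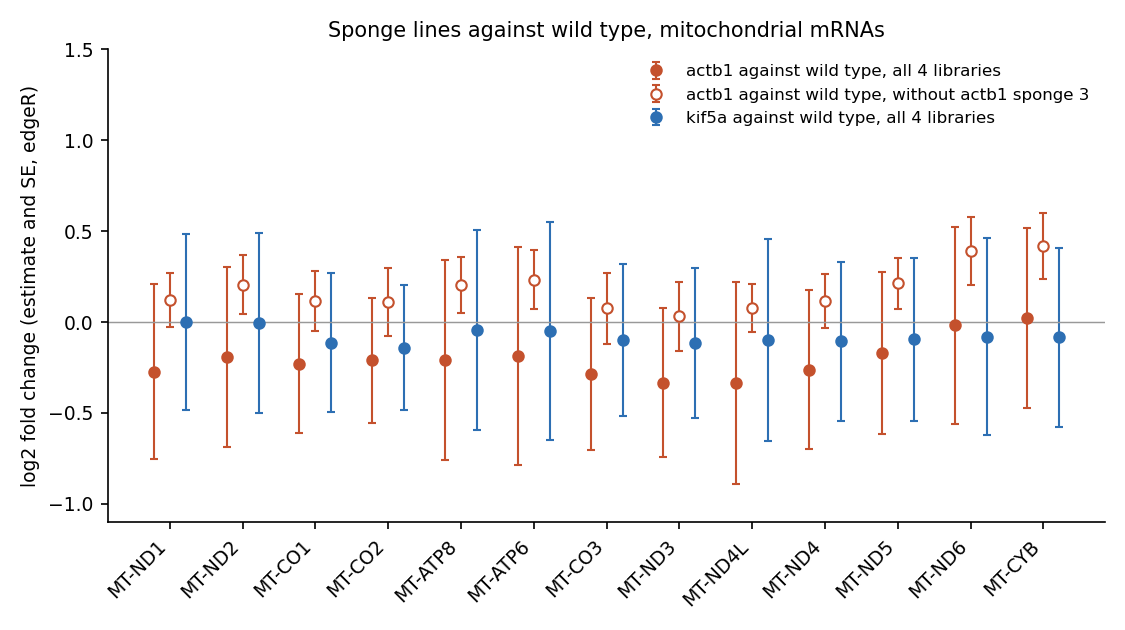
Log2 fold change (vertical axis, edgeR estimate with the SE derived from its test) of the 13 mitochondrial mRNAs in genome order. Markers show the kif5a line against wild type. They also show the actb1 line against wild type with all 4 actb1 libraries (filled) and without actb1 sponge 3 (open). Without that library the actb1 estimates of all 13 genes lie above 0, where with it only MT-CYB did (0.02), and the bars are shorter.

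Nuclear genes that act on the mitochondrial genome and its products were set beside the 13 from lists of names. Of 36 tested genes for transcription, processing and decay of mitochondrial RNA, 0 were called in any of the 3 comparisons (edgeR), with medians of 0.03, 0.00 and 0.01 for the actb1 line against wild type, the kif5a line against wild type and the actb1 line against the kif5a line. At an unadjusted p under 0.05 there were 4, 4 and 5 of them, beside 16.7%, 11.3% and 16.2% of all genes, the shares against which the counts of the lists that follow are to be read; limma-voom called 0 in each comparison and DESeq2 1 in each. FASTKD3, a mitochondrial RNA-binding protein of the FASTK family, had the smallest p in the actb1 line (18.4 ± 0.287 CPM against 23.1 ± 0.801 in wild type, log2 -0.34 ± 0.09 SE, edgeR adjusted p = 0.114). LRPPRC, which stabilises mitochondrial mRNAs, had the smallest in the kif5a line (155 ± 6.88 against 128 ± 8.47 CPM, log2 0.23 ± 0.07, edgeR adjusted p = 0.253).

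Of 15 tested genes for replication and upkeep of mitochondrial DNA, 2 had an unadjusted p under 0.05 in the kif5a line against wild type (edgeR, 11.3% of all genes). Of the 15, 1 was called lower in the kif5a line than in wild type, where 0.534% of all genes were called either way. This was RRM2B, a ribonucleotide reductase subunit that supplies nucleotides for mitochondrial DNA in non-dividing cells. It fell from 71.2 ± 17.1 to 23.9 ± 0.564 CPM (SD, n = 4 each; log2 -1.61 ± 0.26 SE, edgeR adjusted p = 0.0166), and the ranges, 23.1 to 24.4 against 56.9 to 91.6 CPM, did not overlap. The call held in 4 of the 8 fits from which 1 library of either group was dropped, and was lost without wild type 4 or kif5a sponge 1, 2 or 3 (log2 -1.62 to -1.56, edgeR adjusted p = 0.0513 to 0.0811). In the actb1 line RRM2B stood at 43.8 ± 20.2 CPM (edgeR adjusted p = 0.191). The list had 0 calls there by edgeR, DESeq2 or limma-voom, with 1 gene at an unadjusted p under 0.05 by edgeR, and 0 calls by edgeR between the lines (1 gene at an unadjusted p under 0.05; 1 call by DESeq2, 0 by limma-voom).

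Of 73 tested mitochondrial ribosome genes, 1 was higher in the actb1 line than in wild type by edgeR, 3 by DESeq2 and 0 by limma-voom. EdgeR called 0.738% of all genes there. By edgeR 12 of the 73 had an unadjusted p under 0.05, beside 16.7% of all genes. DESeq2 called 934 of all 19645 genes in that comparison. In the kif5a line against wild type 0 were called (5 at an unadjusted p under 0.05 by edgeR; 0 calls by DESeq2 and limma-voom), and between the lines 0 (3 at an unadjusted p under 0.05; 1 call by DESeq2, 0 by limma-voom). MRPL46, a protein of the large subunit, rose from 15.0 ± 0.635 to 21.7 ± 3.54 CPM (log2 0.52 ± 0.10 SE, edgeR adjusted p = 0.0405). Limma-voom did not call it (adjusted p = 0.0509). The edgeR call was kept in 3 of 8 fits with 1 library dropped, and lost without wild type 1, 2 or 4 or actb1 sponge 1 or 2 (log2 0.50 to 0.56, adjusted p = 0.0714 to 0.106). The list's median was 0.11 in the actb1 line with 56 of 73 positive, and 0.05 in the kif5a line with 53 of 73 positive, against -0.03 and -0.01 for all genes. By library, the mean log2 level of the list relative to wild type was -0.015, -0.0044, 0.25 and 0.22 in actb1 sponge 1 to 4. The first pair lay inside the wild type range of -0.049 to 0.052 and the second pair above it. In kif5a sponge 1 to 4 the level was 0.099, 0.15, 0.16 and 0.036, the last inside that range and the others above it. These levels rest on CPM. In actb1 sponge 3 the low mitochondrial share by itself raises the CPM of other genes by a factor of 1.103 over a library with the median share.

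The nuclear partners of the 13 mRNAs, the other subunits of the same complexes, gave 91 tested genes. In the actb1 line 76 were positive against wild type, with a median of 0.17 against -0.03 for all genes, and 1 was called by edgeR, 6 by DESeq2 and 0 by limma-voom. EdgeR called 0.738% of all genes there. By edgeR 17 of the 91 had an unadjusted p under 0.05, beside 16.7% of all genes. DESeq2 called 934 of all 19645 genes in that comparison. By library, the mean log2 level of the list relative to wild type was 0.018, 0.046, 0.29 and 0.32 in actb1 sponge 1 to 4. Actb1 sponge 1 and 2 lay inside the wild type range of -0.057 to 0.064, and actb1 sponge 3 and 4 above it. In kif5a sponge 1 to 4 the level was -0.079, 0.017, 0.14 and -0.069, which reached both below and above that range. The factor of 1.103 on CPM in actb1 sponge 3 applies to these levels too. Without actb1 sponge 3 the median fold change of the actb1 line was also 0.17, with 84 positive and 0 called (16 at an unadjusted p under 0.05, edgeR). The called gene was cox7a1, a subunit of complex IV best known from heart and muscle in mammals, which rose from 1.76 ± 0.202 to 5.42 ± 2.35 CPM (log2 1.62 ± 0.33 SE, edgeR adjusted p = 0.0465). The call was kept only without actb1 sponge 1; without any other 1 of the 8 libraries the log2 change was 1.41 to 1.68 (adjusted p = 0.0591 to 0.127), and limma-voom gave an adjusted p of 0.131. Muscle marker genes summed to 4.57 to 31.0 CPM in the actb1 line and 3.00 to 12.4 CPM in wild type, and their part in the cox7a1 result was not tested.

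In the kif5a line the same 91 genes had a median of -0.01 and 1 call by each of edgeR, DESeq2 and limma-voom. EdgeR called 0.534% of all genes in that comparison. The called gene was atp5mea, a subunit of ATP synthase that helps its dimers form. It fell from 69.2 ± 4.29 to 28.8 ± 1.84 CPM (log2 -1.30 ± 0.20 SE, edgeR adjusted p = 0.0138, kept in 6 of 8 fits with 1 library dropped), with no overlap of the groups. Without kif5a sponge 1 or 3 the adjusted p was 0.0643 or 0.055 (log2 -1.26 and -1.31). Between the lines 3 of the 91 were called higher in the actb1 line, in a comparison where edgeR called 1.18% of all genes. They were cox7a1 (log2 2.29 ± 0.34, edgeR adjusted p = 0.00631), atp5mea (1.31 ± 0.20, edgeR adjusted p = 0.00898) and COX4I2 (0.45 ± 0.09, edgeR adjusted p = 0.0327). The calls of cox7a1 and atp5mea were kept in 8 of 8 fits with 1 library dropped. The COX4I2 call was lost without actb1 sponge 1 or 4 or kif5a sponge 1, 2 or 4 (log2 0.42 to 0.45, edgeR adjusted p = 0.0689 to 0.0991). At an unadjusted p under 0.05 by edgeR, 2 of the 91 stood in the kif5a line against wild type (11.3% of all genes). Between the lines there were 26 of the 91 (16.2% of all genes), which became 16 of the 91 without actb1 sponge 3 (14.9% of all genes). Of 27 tested genes for biogenesis and stress of mitochondria, ASNS, asparagine synthetase, was lower in the actb1 than in the kif5a line (7.42 ± 1.11 against 13.4 ± 1.36 CPM, edgeR adjusted p = 0.0491). The call was lost in all 8 fits with 1 library dropped (log2 -0.88 to -0.72, edgeR adjusted p = 0.0662 to 0.15). It was the 1 edgeR call of the 27 between the lines, beside 1.18% of all genes. There 7 of the 27 had an unadjusted p under 0.05 by edgeR (16.2% of all genes), and DESeq2 called 3 and limma-voom 1. Against wild type edgeR and limma-voom called 0 of the 27 in either line, with 6 genes at an unadjusted p under 0.05 in the actb1 (16.7% of all genes) and 3 in the kif5a line (11.3%) by edgeR. DESeq2 called 2 and 0.

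Other gene groups stood apart in actb1 sponge 3 together with the mitochondrial mRNAs. Cytosolic ribosome genes (85) summed to 54410 CPM there against 23701 to 32656 CPM in the other 11 libraries, and the nuclear partners (92) to 18518 against 12958 to 16914 CPM. Of the ribosome genes 0 lay below the other libraries and 4 inside their range. Of the 92 nuclear partners 18 lay below the other libraries, 26 inside their range and the rest, the largest part, above it. Of all genes tested, 18.4% had their lowest value in actb1 sponge 3, against which the counts below the other libraries are to be read. The share of all genes with their highest value there was not computed. The mean log2 level of the nuclear partners relative to wild type was higher in actb1 sponge 4 (0.32) than in actb1 sponge 3 (0.29). Of the cell type lists, the sum of the neuronal genes was lowest of the 12 there (5572 against 6465 to 7709 CPM). Of its 11 genes, 5 lay below the other libraries, among them the SNAP25 gene ENSDARG00000020609 (2635 against 3046 to 4055 CPM), and 6 inside their range. By mean log2 level actb1 sponge 4 was lower (-0.24 against -0.23). Lowest by sum there too were the oligodendrocyte genes (12470 against 14158 to 23416 CPM). Astroglial genes were highest by sum (5942 against 4498 to 5632 CPM). Of these 7 genes, however, 4 lay inside the range of the other libraries, GFAP among them (261 against 156 to 365 CPM). The microglial list was highest too (1348 against 286 to 479 CPM), mostly through apoeb, an apolipoprotein gene, at 1305 CPM. The receptor gene csf1ra stood above the others as well (42.0 against 11.3 to 36.8 CPM), and P2RY12, a microglial receptor, at 1.31 CPM lay within their range. Red blood cell genes summed to 212 against 79.9 to 187 CPM. Rod genes summed to 123 against 1.34 to 111 CPM, and muscle genes to 31.0 against 1.90 to 19.95 CPM. In each of these lists a single gene lay above the other libraries. They were hbaa1 (208 against 71.5 to 183 CPM), GNAT1 (85.6 against 0.250 to 60.9 CPM) and ckma (29.2 against 0.767 to 10.8 CPM). The remaining genes of these lists lay inside the range of the other libraries. By mean log2 level actb1 sponge 3 lay inside that range for each of these lists. The part of all these gene groups in the low mitochondrial share was not tested. CPM values of a library sum to a fixed total, so the low mitochondrial share by itself raises the CPM of all other genes there by a factor of 1.103 over a library with the median share.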

How the data were processed

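RNA from 12 brain libraries was sequenced, and groups were taken from the strain label. Per the labels' protocols, total RNA went into the TruSeq RNA kit, version 2. The submitters' processing notes name the build GRCz10 and the tools STAR 2.4.1d, featureCounts 1.4.6-p4 and bcl2fastq 1.8.4. The sources used here do not give the annotation release. The authors deposited whole-number counts per gene, which entered every test, and RPKM values. In 6540 genes whose counts all exceeded 500, the deposited RPKM matched the counts only with the 12 library totals recycled down the genes (median coefficient of variation of the implied gene length 1.48e-05, against 0.179 with each library's own total). RPKM was therefore recomputed here with each library's total and the implied lengths.

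The 13 members and all lists were chosen with earlier results of these data known. Of 32105 identifiers, 26269 had a symbol in the supplied name table. List names were matched by symbol or by symbol prefix: 36 of 44 names were found for mitochondrial RNA, 17 of 20 for mitochondrial DNA and 28 of 31 for biogenesis and stress. Assembly factors and kinases that shared a prefix were dropped after names were seen. Every member is named; of each list, up to 4 genes of smallest p per comparison could be. Genome order came from a RefSeq table of assembly GRCz12tu, in which the 13 lengths equal those implied here; no coordinates were used. No sequence is shown.

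CPM is the count scaled to the library total. Genes above 0.5 CPM in at least 4 libraries (19645) were tested with edgeR 4.0.16 in R 4.3.3 (TMM, quasi-likelihood, 1 model for the 12 libraries, Benjamini-Hochberg adjustment per comparison, called at an adjusted p under 0.05), after a check on simulated data. Alternatives were DESeq2 1.42.0, limma-voom 3.58.1, scaling without the members, library totals, no filter, only the groups compared, limma on log2(deposited RPKM + 0.1), and each library left out. The SE given with edgeR fold changes was derived as the absolute log2 fold change over the square root of the test's F statistic. Ratios were tested by exact permutation. Intervals cover counting error only.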

Additional observations from a re-analysis of the deposited data

Results flagged for a closer look

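Each group of 4 libraries was checked for a library far from the others of its group, by the gap to the nearest library over the group's range. Dixon's limit at the 95% level was used, which chance alone passes in about 1 of 20 groups. Of 87 groups checked, 12 passed, 8 of them through actb1 sponge 3.

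In the actb1 line, actb1 sponge 3 was the lowest library for MT-ATP8 CPM (gap over range 0.868) and for the log2 ratios MT-CO3/MT-CO1 (0.877), MT-CYB/MT-CO1 (0.926) and MT-ATP6/MT-CO3 (0.951). It was lowest for the share of the 13 held by complex I mRNAs (0.939), complex III (0.877) and complex V (0.921), and highest for complex IV (0.936). These shares add up to 100% and are not separate results. The share of all library counts held by the 13, and the CPM of members other than MT-ATP8, did not pass the limit in this line.

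In wild type, library 3 was highest for MT-CYB/MT-CO1 (0.849, at a ratio of 0.273 against 0.235 to 0.240) and lowest for MT-ATP6/MT-CO3 (0.868, at 0.602 against 0.667 to 0.677). Library 2 was lowest for MT-ND5/MT-ND4 (0.958, at 0.637 against 0.693 to 0.696). In the kif5a line, library 1 was lowest for MT-CO1 (0.859, at 34899 CPM against 41872 to 43012 CPM).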

How the results depend on the processing

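The count of members called at an adjusted p under 0.05 was 0 of 13 in every comparison under each alternative run. No paired analysis was possible because the replicate numbers come from accession order, which pairs no libraries. Counting only the 13 protein-coding genes, or leaving out rRNA genes, coincides with the main values, and the ratio between the rRNA genes was not run.

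The number of genes called in the whole table depended on the test, and the cause was not tested. For the actb1 line against wild type it was 145 with edgeR, 934 with DESeq2, 91 with limma-voom, 81 with only the 2 groups in the fit, 61 with the deposited RPKM and 52 to 250 with a library left out. For the kif5a line against wild type it was 105, against 437 with DESeq2, 51 with the deposited RPKM and 35 to 96 with a library left out. Between the lines it was 232, against 950 with DESeq2, 124 with the deposited RPKM and 100 to 177 with a library left out.

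Limma-voom averages log values, on which 1 low library weighs more: the members' median against wild type in the actb1 line was -0.61, and MT-CYB stood at -0.39 against wild type and -0.33 against the kif5a line, in place of 0.02 and 0.11. The deposited RPKM, with its recycled totals, put the median of all genes at 0.13 in the actb1 and 0.14 in the kif5a line against wild type. With it MT-CYB stood at -0.064 in the actb1 line against wild type and at -0.49 against the kif5a line, and the kif5a line against wild type gave 0.33 for MT-ND4, 0.43 for MT-CYB and 0.33 for MT-CO1; relative to that median these are smaller but still positive. The same values gave log2 differences of -0.071 for MT-CYB/MT-CO1 between the lines and -0.48 for MT-ATP6/MT-CO3 in the kif5a line. Per 100 counts of other genes the kif5a line held 12.2 mitochondrial counts on average.

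With a library left out, the log2 fold changes in the actb1 line against wild type ran from -0.52 to 0.12 for MT-ND4, -0.25 to 0.42 for MT-CYB, -0.48 to 0.11 for MT-CO1 and -0.47 to 0.23 for MT-ATP6. Against the kif5a line they ran from -0.41 to 0.21, -0.17 to 0.49, -0.37 to 0.22 and -0.43 to 0.27 for the same genes. Of these 4 genes, MT-ND4, MT-CO1 and MT-ATP6 turned positive only without actb1 sponge 3. In the kif5a line against wild type MT-CYB ran from -0.17 to 0.086 and MT-ATP6 from -0.12 to 0.081. The log2 ratio differences ran, against wild type, from -0.048 to 0.32 (MT-CYB/MT-CO1) and -0.50 to 0.15 (MT-ATP6/MT-CO3) in the actb1 line, and from -0.0056 to 0.13 (MT-ND1/MT-CYB) and -0.00086 to 0.064 (MT-ATP6/MT-CO3) in the kif5a line. Between the lines they ran from -0.090 to 0.28 and from -0.54 to 0.11 for MT-CYB/MT-CO1 and MT-ATP6/MT-CO3. MT-ND1/MT-CYB stayed negative in the actb1 line in each fit with a library left out, from -0.39 to -0.26 against wild type and from -0.43 to -0.34 against the kif5a line; these 3 ratios were picked after their values were seen.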

Other observations

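Between the first and the last of the 13 members in the count table lie 17 identifiers that the supplied name table does not pair with a symbol, with implied lengths of 68 to 74 bases. Their summed share of counts was 0.0311% in actb1 sponge 3 and 0.0570% to 0.0921% in the other 11 libraries. All 17 were lowest in actb1 sponge 3, by 1.55-fold to 17.8-fold below the median of the others. What these identifiers are is not given in the files.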
